A study of Mus musculus with 24 samples.

Results

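The HoxA cluster is a run of neighbouring homeobox genes, and 10 of its members on mouse chromosome 6 were followed here through 17 ChIP-seq peak lists: Hoxa2, Hoxa3, Hoxa4, Hoxa5, Hoxa6, Hoxa7, Hoxa9, Hoxa10, Hoxa11 and Hoxa13, out of 22225 protein-coding gene symbols in the mm9 annotation (GENCODE vM1). The members were chosen by name and position. The cluster itself was picked because it had ranked first among the H3K27ac clusters of 1 of the lists, that of WT MEF, so that list is given as a description. From the lowest to the highest annotated base the members occupied chr6:52112350-52210874, all on the minus strand, and 5 kb on each side was added to give a span of 108525 bp (chr6:52107350-52215874).

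The study profiled cultured mouse fibroblasts of 3 kinds, each immortalised with the papillomavirus proteins E6 and E7: embryonic fibroblasts (MEF, C57BL/6, embryos at E10 to E13), fibroblasts of MMTV-PyMT mammary tumours (MMTV-CAF, FVB/NJ) and fibroblasts from wounds made on the back and taken on day 10 (wound-healing fibroblasts, C57BL/6). WT cells were compared with SG cells, in which a CRISPR/Cas9 guide had been directed at Prrx1, and the control for that guide was a non-targeting one (SgNS). MEF had a further genotype, KI, read here as cells from Prrx1 mutant embryos (129S-Prrx1tm1Jfm/Mmmh). The paper describes that allele as a lacZ insertion and the mice as backcrossed to C57BL/6. The labels do not say whether the WT MEF library carried the control guide. Each combination of cell type, genotype and target had 1 list, so no difference below has a replicate check and no test was run. Genotype, the embryos or culture a line came from and the library cannot be told apart, and neither can a change in every cell and a change in the share of cells that carry a mark.

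Hox genes encode transcription factors that give cells their position along the body axis and the limbs. The order of the genes along the chromosome follows the order of their use: genes at the Hoxa2 end act in the head and hindbrain, those at the Hoxa13 end in the far limb and the hind body. Cultured fibroblasts are known to keep a Hox pattern that reflects their site of origin. H3K4me3 marks active or poised promoters, and H3K27ac marks active promoters and enhancers. PRRX1 is a paired-type homeodomain protein of limb and facial mesenchyme that binds TAAT-containing sites.

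The sequences below are those at which PRRX1 summits of both MMTV-CAF and wound-healing fibroblasts coincided outside untranslated exons, printed from the mm9 plus strand as 101 bases centred on the wound-healing summit. Capitals mark TAAT and ATTA, the homeodomain core on either strand, with overlapping matches run together. The first lies in an intron of Hoxa2 (chr6:52113838-52113938), the second in an intron of Hoxa7 (chr6:52166806-52166906) and the third in an intron of Hoxa9 (chr6:52177697-52177797).
Hoxa2 intron: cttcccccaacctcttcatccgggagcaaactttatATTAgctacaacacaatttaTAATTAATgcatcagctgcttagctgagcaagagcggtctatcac
Hoxa7 intron: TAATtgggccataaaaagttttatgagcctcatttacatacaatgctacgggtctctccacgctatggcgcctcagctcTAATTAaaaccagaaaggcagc
Hoxa9 intron: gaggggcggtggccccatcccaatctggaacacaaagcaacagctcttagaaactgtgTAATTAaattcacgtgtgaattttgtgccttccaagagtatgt
Each of these windows held TAATTA, a palindrome made of both cores.

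A last sequence is that of the single place where all 7 H3K27ac lists put a summit within the same 31 bp, upstream of Hoxa4 (chr6:52142139-52142269, plus strand). Capitals mark the stretch from the lowest to the highest of the 7 summits.
Hoxa4 upstream: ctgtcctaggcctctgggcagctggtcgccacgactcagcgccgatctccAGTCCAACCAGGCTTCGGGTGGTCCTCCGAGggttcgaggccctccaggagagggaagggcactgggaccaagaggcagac

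The lists differed in size, which bears on every count below. The H3K27ac lists held 29325 (KI MEF) to 61603 summits (MMTV-CAF SG), the H3K4me3 lists 13125 (KI MEF) to 29166 regions (MMTV-CAF SG), and the PRRX1 lists 3048 (MEF), 5698 (wound-healing) and 8000 summits (MMTV-CAF). The KI MEF lists were the shortest for both marks and had median −log10 p of 11.9 for H3K27ac and 9.93 for H3K4me3, against 18.5 and 28.6 in WT MEF. Read depth is not part of these lists and is unknown. H3K4me3 lay over a start of 6 to 11 of 12 fibroblast genes (6 of 12 in KI MEF), over 0 or 1 of 6 epithelial genes, none of 5 immune genes, 0 or 1 of 4 endothelial genes and none of 3 muscle genes. Among the fibroblast genes, Lum was at no region in any list, and of the epithelial genes Epcam, Krt5, Krt8, Krt14 and Krt18 were at none. Prrx1 itself had H3K4me3 over a start in all 7 lists, including KI and SG. It had H3K27ac at a start in WT MEF, MMTV-CAF SG and wound-healing SG only. A mark at the start does not show whether the protein was made, so it is no check of the deletion.

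H3K4me3 covered between 38.1 and 57.9 kb of the HoxA span. WT MEF had 49.6 kb in 20 regions (45.7% of the span), KI MEF 38.1 kb in 14 regions (35.1%) and SG MEF 44.0 kb in 17 regions (40.6%). MMTV-CAF WT had 43.1 kb in 13 regions (39.7%) and MMTV-CAF SG 46.3 kb in 12 regions (42.7%). Wound-healing WT had 46.9 kb in 14 regions (43.2%) and wound-healing SG 57.9 kb in 12 regions (53.3%). At the deposited list sizes KI MEF had the least and wound-healing SG the most. With every list cut to 13125 regions, SG MEF had the least (36.5 kb, against 38.1 kb in KI MEF and 42.8 kb in WT MEF). The same lists covered 0.779% (KI MEF) to 1.93% (MMTV-CAF SG) of the genome, so coverage of the span was 21.0 to 45.0 times the genome's own.

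**Figure D1:**
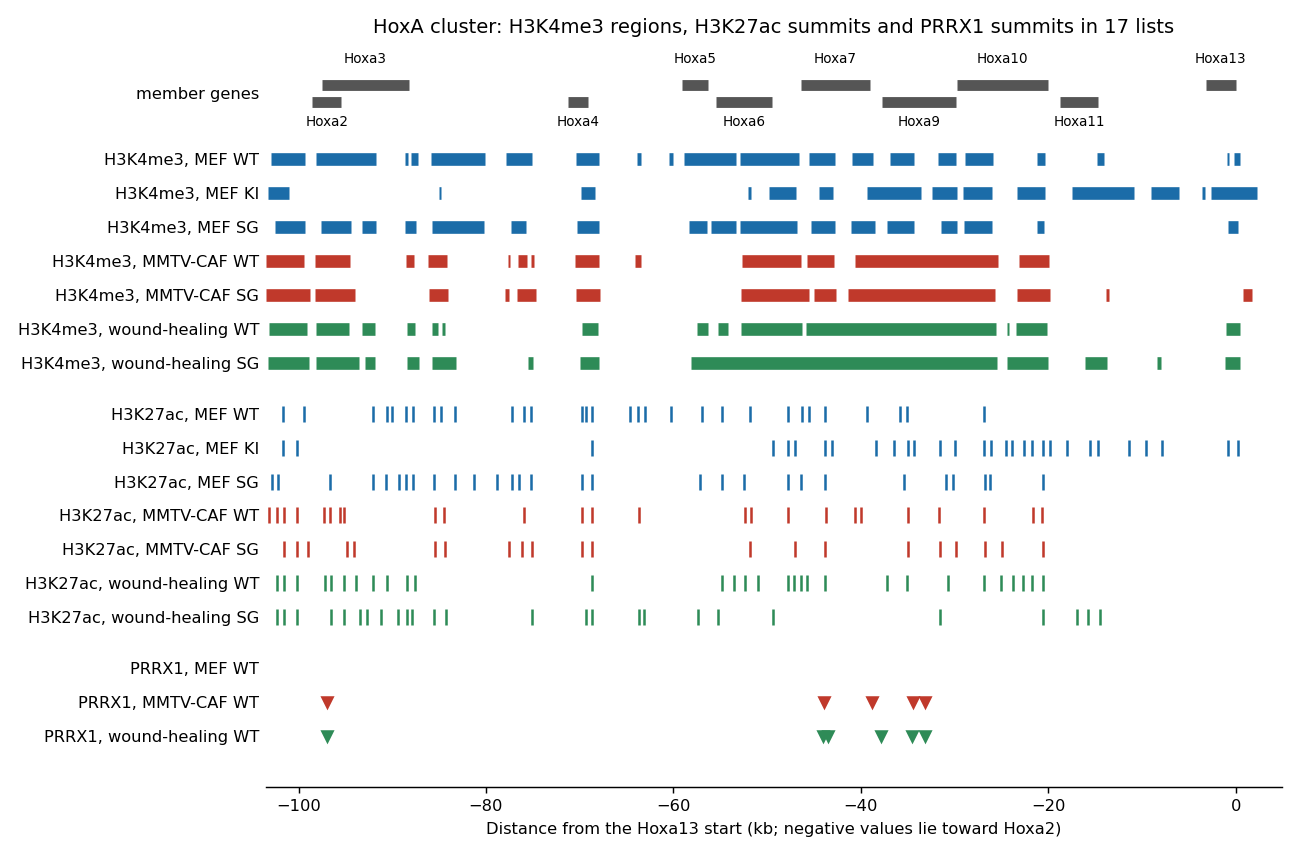
Positions of H3K4me3 regions (bars), H3K27ac summits (ticks) and PRRX1 summits (triangles) in each of the 17 lists, by distance in kb from the Hoxa13 start, with the member genes above (Hoxa3 is drawn to its innermost start). KI MEF is marked mainly from Hoxa6 to Hoxa13, the other lists mainly up to Hoxa10, and the MEF PRRX1 list has no summit in the span.

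The H3K4me3 region at the outermost Hoxa10 start ended at nearly the same base in all 7 lists. That region was picked by its place at the start, so its end is not the end of all marking. Marking resumed farther on in the span in every list but MMTV-CAF WT, and ran to 52213108 in KI MEF. In WT MEF the region measured 0.809 kb. The outermost Hoxa10 start lies at chr6:52190853, and the last H3K4me3 region before or over it ended at 52190518 in WT MEF, 52190515 in KI MEF, 52190468 in SG MEF, 52190923 in MMTV-CAF WT, 52191053 in MMTV-CAF SG, 52190753 in wound-healing WT and 52190859 in wound-healing SG. These 7 ends fell within 586 bp of each other. What followed differed. The unmarked stretch beyond was 2.88 kb in KI MEF, 3.95 kb in wound-healing SG, 5.61 kb in WT MEF and 5.99 kb in MMTV-CAF SG, and it ran for 19.1 kb in wound-healing WT and 19.5 kb in SG MEF, to the next region at Hoxa13. In MMTV-CAF WT no further region lay in the span, and the next began 29.5 kb on.

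At the other end a region lay in the flank beyond Hoxa2 in all 7 lists, and outside the span the next region on that side was 54.7 to 144 kb away. The nearest protein-coding neighbour on that side outside the Hox genes, Skap2 (an adaptor protein gene, 150 kb from the members), had H3K4me3 and H3K27ac at a start in all 7 lists. On the Hoxa13 side, Evx1 (a homeobox gene, 52.6 kb away) had neither mark in any list.

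Divided by position, the cluster showed 3 patterns. In WT and SG MEF the H3K4me3 lay mainly over the Hoxa2 to Hoxa7 side. In MMTV-CAF and wound-healing fibroblasts it was densest over Hoxa9 and Hoxa10, though most of the marked bases lay from Hoxa2 to Hoxa7. In KI MEF it was also densest over Hoxa9 and Hoxa10, and most of the marked bases lay from Hoxa9 to Hoxa13. The stretches used here are Hoxa2 to Hoxa3 (with the flank, 32.3 kb), Hoxa4 to Hoxa7 (33.4 kb), Hoxa9 to Hoxa10 (17.8 kb) and Hoxa11 to Hoxa13 (with the flank, 25021 bp).

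Over Hoxa2 to Hoxa3, 60.2% of bases were in H3K4me3 regions in WT MEF, 7.67% in KI MEF, 50.3% in SG MEF, 37.8% in MMTV-CAF WT, 41.4% in MMTV-CAF SG, 33.9% in wound-healing WT and 44.4% in wound-healing SG. KI MEF stood far below the other 6. Over Hoxa4 to Hoxa7 the shares were 60.5% in WT MEF, 23.1% in KI MEF, 54.4% in SG MEF, 45.9% in MMTV-CAF WT, 47.6% in MMTV-CAF SG, 55.8% in wound-healing WT and 67.0% in wound-healing SG. Again KI MEF was lowest. Over Hoxa9 to Hoxa10 they were 47.1% in WT MEF, 73.3% in KI MEF, 47.3% in SG MEF, 87.0% in both MMTV-CAF lists, 88.9% in wound-healing WT and 94.2% in wound-healing SG. Here WT and SG MEF were the low ones. Over Hoxa11 to Hoxa13 they were 6.08% in WT MEF, 59.5% in KI MEF, 4.64% in SG MEF, 0.280% in MMTV-CAF WT, 6.18% in MMTV-CAF SG, 6.08% in wound-healing WT and 17.5% in wound-healing SG. Outside KI MEF this end of the cluster was nearly bare, with wound-healing SG in between.

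**Figure D2:**
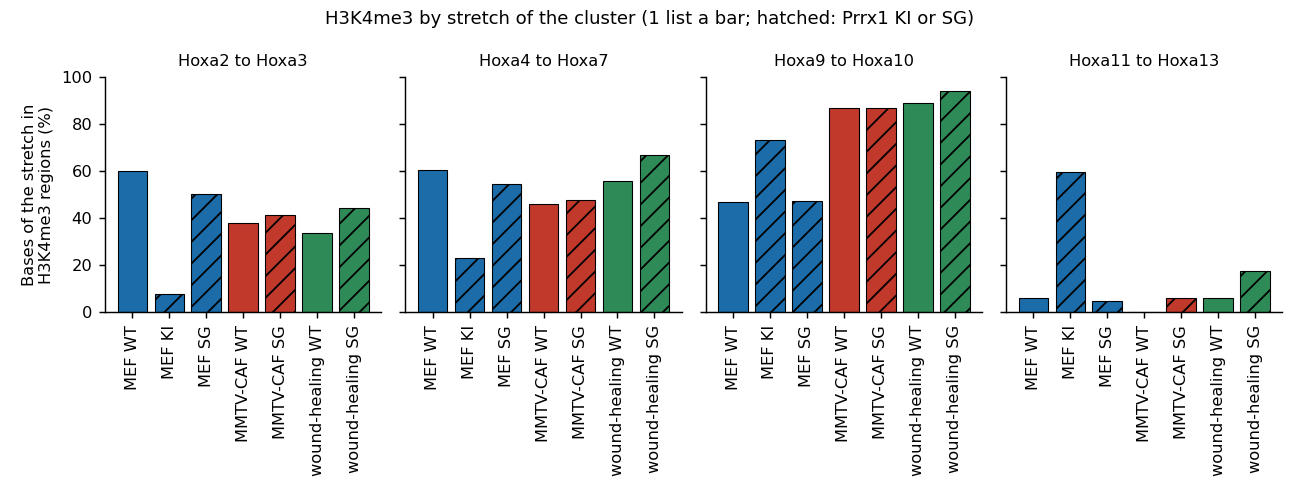
Share of the bases of each stretch of the cluster that lay in H3K4me3 regions (%), 1 bar per list, with KI and SG hatched. From Hoxa9 to Hoxa10 the MMTV-CAF and wound-healing bars reach 87.0% or more, and from Hoxa11 to Hoxa13 the KI MEF bar is at 59.5% and the others at or below 17.5%.

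As a share of all marked bases in the span, Hoxa9 to Hoxa13 held 19.9% in WT MEF, 73.3% in KI MEF, 21.7% in SG MEF, 36.0% in MMTV-CAF WT, 36.7% in MMTV-CAF SG, 36.9% in wound-healing WT and 36.5% in wound-healing SG. The 4 MMTV-CAF and wound-healing lists lay between the WT and KI MEF lists, from 36.0% to 36.9% at the deposited sizes and from 35.1% to 41.6% at equal list size. The KI MEF share was 70.0% among regions with −log10 p of at least 10, and 73.3% at equal list size, where WT MEF had 8.36% and 16.4%, a comparison added after seeing the data. Of the 38.1 kb marked in KI MEF, 9.25 kb was in no other list, and all of that lay between Hoxa11 and Hoxa13.

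Gene by gene, 10 of 10 members had an H3K4me3 region over at least 1 annotated start in WT MEF (53.2% of all genes), 8 in KI MEF (41.6% of all genes) and 8 in SG MEF (51.5%). MMTV-CAF had 7 in WT (52.5% of all genes) and 7 in SG (53.1%), and wound-healing fibroblasts 9 in WT (54.8%) and 10 in SG (55.4%). These shares of all genes are the background, and every list was above it for HoxA. Members with many alternative starts had more chances to be counted, and the 10 genes had 31 distinct starts. Of these 31, region cover was found at 24 in WT MEF (47.0% of 69960 starts of all genes), 19 in KI MEF (35.3%), 23 in SG MEF (45.3%), 23 in MMTV-CAF WT (48.1%), 22 in MMTV-CAF SG (48.1%), 25 in wound-healing WT (48.0%) and 29 in wound-healing SG (49.0%). In all 7 lists, 13 starts were covered (33.9% of all starts), and 6 members (Hoxa3, Hoxa4, Hoxa6, Hoxa7, Hoxa9 and Hoxa10) were marked in all 7, against 39.8% of all genes.

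Hoxa2, which patterns the second pharyngeal arch and hindbrain, has 1 annotated start (chr6:52115412). It was marked in 6 lists, by a region of 6.38 kb in WT MEF, 3.18 kb in SG MEF, 3.73 kb in MMTV-CAF WT, 4.25 kb in MMTV-CAF SG, 3.56 kb in wound-healing WT and 4.55 kb in wound-healing SG. KI MEF had none: its list was empty from 52109825 to 52125874, and the Hoxa2 body was 0.00% covered there against 69.1% to 91.7% in the others.

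Hoxa3, required for pharyngeal organs such as the thymus, is annotated with 6 starts, of which 3 belong to long transcripts that begin between Hoxa6 and Hoxa7. Those far starts (52163066 to 52163338) were covered in all 7 lists, so Hoxa3 counts as marked everywhere. At its innermost start (52122648) only SG MEF, MMTV-CAF WT and both wound-healing lists had a region, and at the start at 52133854 only WT and SG MEF did. KI MEF had no region at any of the 3 starts nearest to the Hoxa3 coding exons.

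Hoxa4 was marked at both of its starts in all 7 lists by a narrow region of 2.40 kb in WT MEF, 1499 bp in KI MEF, 2.39 kb in SG MEF, 2.58 kb in both MMTV-CAF lists, 1.74 kb in wound-healing WT and 2.02 kb in wound-healing SG. Between Hoxa4 and Hoxa6 the largest unmarked gap was 16.3 kb in KI MEF, 14995 bp in MMTV-CAF SG, 10.8 kb in MMTV-CAF WT, 10.6 kb in wound-healing WT, 9.80 kb in wound-healing SG and 9.64 kb in SG MEF, and in WT MEF no gap there exceeded 5 kb.

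Hoxa5, needed for lung development, was bare in more lists than any other member between Hoxa2 and Hoxa10. Its start (52154586) was covered in 3 lists, by regions of 5.61 kb in WT MEF, 1.16 kb in wound-healing WT and 32.7 kb in wound-healing SG. The wound-healing WT region ended at 52154588, just past the start. Both MMTV-CAF lists and KI MEF had no region over the start or the gene body. SG MEF had regions on either side that left 439 bp around the start uncovered, with 65.2% of the gene body marked, so its count as unmarked rests on a short gap.

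Hoxa6 and Hoxa7 were marked in all 7 lists. The widest region over Hoxa6 was 6.28 kb in WT MEF, 2.90 kb in KI MEF, 6.10 kb in SG MEF, 6.30 kb in MMTV-CAF WT, 7.31 kb in MMTV-CAF SG, 6.55 kb in wound-healing WT and 32.7 kb in wound-healing SG. From Hoxa7 on, the MMTV-CAF and wound-healing fibroblasts carried single broad regions. MMTV-CAF WT had a region of 15273 bp (chr6:52170230-52185502), the 20th widest of its list, and MMTV-CAF SG one of 15764 bp (chr6:52169480-52185243), the 13th widest. Wound-healing WT had one of 20288 bp (chr6:52165003-52185290), the 2nd widest of 16961, and wound-healing SG one of 32735 bp (chr6:52152730-52185464), the widest of 19641. In WT MEF the widest region in the span was 6380 bp, ranked 131st, at Hoxa2, and in SG MEF it was 6100 bp, ranked 97th, at Hoxa6.

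Hoxa9, a regulator of blood stem cells, had 4 starts, of which 2 were covered in WT MEF, 3 in KI MEF, 3 in SG MEF and all 4 in the MMTV-CAF and wound-healing lists. The highest fold enrichment of a region over one of its starts was 3.65 in WT MEF, 3.36 in KI MEF and 3.41 in SG MEF, and 10.8, 14.6, 7.20 and 9.81 in MMTV-CAF WT, MMTV-CAF SG, wound-healing WT and wound-healing SG. Hoxa10, known for its role in the uterus, followed Hoxa9, with 2.83 in WT MEF, 2.93 in SG MEF, a fold above 25.6% of the regions of its list in KI MEF, and the same values as Hoxa9 in the other 4, since 1 region spans both genes there. The median fold of all regions was 4.97, 3.59 and 5.46 in these MEF lists, 3.58 and 4.04 in those of MMTV-CAF, then 6.61 and 6.65 in the wound-healing lists. Regions over a Hoxa9 or Hoxa10 start thus lay under the median of their list in the 3 MEF lists, and the highest above it in the other 4. A KI MEF region inside Hoxa10 that reached no start (52187512 to 52190515) had fold 4.06, above the median. The 2 outermost Hoxa10 starts (52190794 and 52190853) were covered in MMTV-CAF WT, MMTV-CAF SG and wound-healing SG.

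Hoxa11, which shapes the forearm and the uterus, was marked in 3 lists. In KI MEF the region over it measured 6662 bp (chr6:52193400-52200061, fold 3.59, −log10 p 11.1), the 22nd widest of 13125 regions and the widest of the span in that list. Wound-healing SG had 2.39 kb (fold 4.64, −log10 p 6.35) and WT MEF 0.655 kb (fold 2.46, −log10 p 4.56). The WT MEF region touched only the outer of the Hoxa11 starts. SG MEF, both MMTV-CAF lists and wound-healing WT had none there.

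Hoxa13, which shapes the digits and the genital tubercle, was marked in 5 lists. The region over its starts measured 4.89 kb in KI MEF, 0.635 kb in WT MEF, 1.16 kb in SG MEF, 1.52 kb in wound-healing WT and 1.55 kb in wound-healing SG. MMTV-CAF WT had no region there, and in MMTV-CAF SG a region of 1046 bp began upstream of the outermost start without reaching it.

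Of the annotated noncoding genes of the span, Mir196b, RP23-329P9.11 and the pseudogene 9930038K12Rik, all within Hoxa9, had H3K4me3 over a start in all 7 lists, and Gm15051 beyond Hoxa2 did too, also in KI MEF, where Hoxa2 was bare. 5730446D14Rik and 2700086A05Rik, at Hoxa2 and Hoxa3, had it in every list but KI MEF. Hoxa11as, antisense to Hoxa11, had it in WT MEF, KI MEF and wound-healing SG, the same 3 lists as Hoxa11, and Gm15053, upstream of Hoxa13, in KI MEF alone. Gm15050 had it in SG MEF, MMTV-CAF WT and both wound-healing lists.

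Over the whole span, 16.0 kb (14.8%) was in an H3K4me3 region in all 7 lists, in 10 stretches of at most 2901 bp, and 29.4 kb (27.1%) in none. Starts of Hoxa3, Hoxa4, Hoxa6, Hoxa7, Hoxa9 and Hoxa10 lay in 7 of these stretches.

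The bases under the regions were rich in CpG dinucleotides. The span held 29.8 CpG per kb against 7.97 for chromosome 6. Inside H3K4me3 regions the density was 42.1 per kb in WT MEF, 46.4 in KI MEF, 45.2 in SG MEF, 39.7 in MMTV-CAF WT, 37.1 in MMTV-CAF SG, 43.1 in wound-healing WT and 41.7 in wound-healing SG, and outside them 16.2 to 24.4. By stretch the density was 23.8 per kb over Hoxa2 to Hoxa3, 32.5 over Hoxa4 to Hoxa7, 34.8 over Hoxa9 to Hoxa10 and 30.4 over Hoxa11 to Hoxa13. The Hoxa11 to Hoxa13 stretch thus lay within the range of the others.

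Promoter sequences of 9 of the 10 members were matched in RefSeq (GRCm38.p6), as 250 bases before the start; Hoxa4 was not among them. They held a median of 15.5 CpG, against 6.00 over 32851 promoters. Shown, because their cover differed between fibroblast types, are the promoter of the Hoxa10 start at 52184938, which had H3K4me3 over all its 250 bases in the MMTV-CAF and wound-healing lists and over 7%, 0% and 0% in WT, KI and SG MEF, and the Hoxa13 promoter, fully covered in the 3 MEF and both wound-healing lists and uncovered in both MMTV-CAF lists. Both are printed 5′ to 3′ on the gene's strand with CG in capitals. They matched mm9 exactly, at chr6:52184939-52185188 and chr6:52210875-52211124.
Hoxa10: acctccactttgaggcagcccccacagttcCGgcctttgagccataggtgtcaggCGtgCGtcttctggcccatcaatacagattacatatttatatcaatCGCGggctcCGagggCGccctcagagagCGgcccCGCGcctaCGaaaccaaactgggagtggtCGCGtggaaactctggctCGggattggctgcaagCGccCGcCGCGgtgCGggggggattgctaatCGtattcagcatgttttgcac
Hoxa13: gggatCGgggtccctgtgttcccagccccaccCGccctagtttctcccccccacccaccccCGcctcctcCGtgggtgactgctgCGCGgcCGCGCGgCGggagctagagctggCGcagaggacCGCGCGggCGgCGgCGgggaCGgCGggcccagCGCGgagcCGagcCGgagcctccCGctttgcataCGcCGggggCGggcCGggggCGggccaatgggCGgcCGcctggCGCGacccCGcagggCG
The Hoxa10 promoter printed here held 20 CpG and the Hoxa13 promoter 35, the highest count among the member promoters. A further Hoxa10 promoter, that of the start at 52190853, held 7. The Hoxa10 starts at 52183323 and 52183705 were covered in all 7 lists. The matched Hoxa9 promoter, that of the start at 52177369, held 3 CpG, the lowest count. It was wholly covered in the 4 MMTV-CAF and wound-healing lists and uncovered in the 3 MEF lists. The Hoxa9 starts at 52176150 and 52180264 were covered in all 7 lists.

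H3K27ac summits numbered 31 in WT MEF, 30 in KI MEF, 29 in SG MEF, 25 in MMTV-CAF WT, 21 in MMTV-CAF SG, 30 in wound-healing WT and 26 in wound-healing SG. That is 1.94 to 2.86 per 10 kb, against 0.110 to 0.232 per 10 kb over the genome. The lists give 1 position per summit and no width, so a wide acetylated stretch with 1 summit counts once and these numbers do not measure acetylated length. Most summits in the span, 76.9% to 96.0% by list, were inside an H3K4me3 region of the same cells.

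Summits near Hoxa9 to Hoxa13 again set KI MEF apart. From Hoxa9 on there were 3 of 31 in WT MEF, 21 of 30 in KI MEF, 6 of 29 in SG MEF, 5 of 25 in MMTV-CAF WT, 6 of 21 in MMTV-CAF SG, 9 of 30 in wound-healing WT and 5 of 26 in wound-healing SG. Beyond Hoxa10 there were 9 in KI MEF, 3 in wound-healing SG and 0 in the other 5 lists. The last summit toward Hoxa13 lay at 52183989 in WT MEF, 52190305 in SG MEF, 52190186 in MMTV-CAF WT, 52190294 in its SG counterpart and 52190291 in wound-healing WT. In the last 4 of these lists it belonged to 1 site (52190186 to 52190305), beside the end of the H3K4me3 region at the outermost Hoxa10 start. It was at 52196411, by Hoxa11, in wound-healing SG and at 52211152, by Hoxa13, in KI MEF.

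At the Hoxa2 end the counts were reversed. Over Hoxa2 to Hoxa3 there were 13 summits in WT MEF, 2 in KI MEF, 15 in SG MEF, 11 in MMTV-CAF WT, 10 in MMTV-CAF SG, 11 in wound-healing WT and 14 in wound-healing SG. KI MEF had no summit between 52110721 and 52142201, a gap of 31.5 kb. Leaving out summits within 500 bp of these bounds, WT MEF had 14 there, SG MEF 14, MMTV-CAF WT 8, MMTV-CAF SG 9, wound-healing WT 8 and wound-healing SG 12. The largest gap in any other list was 18.9 kb.

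**Figure D3:**
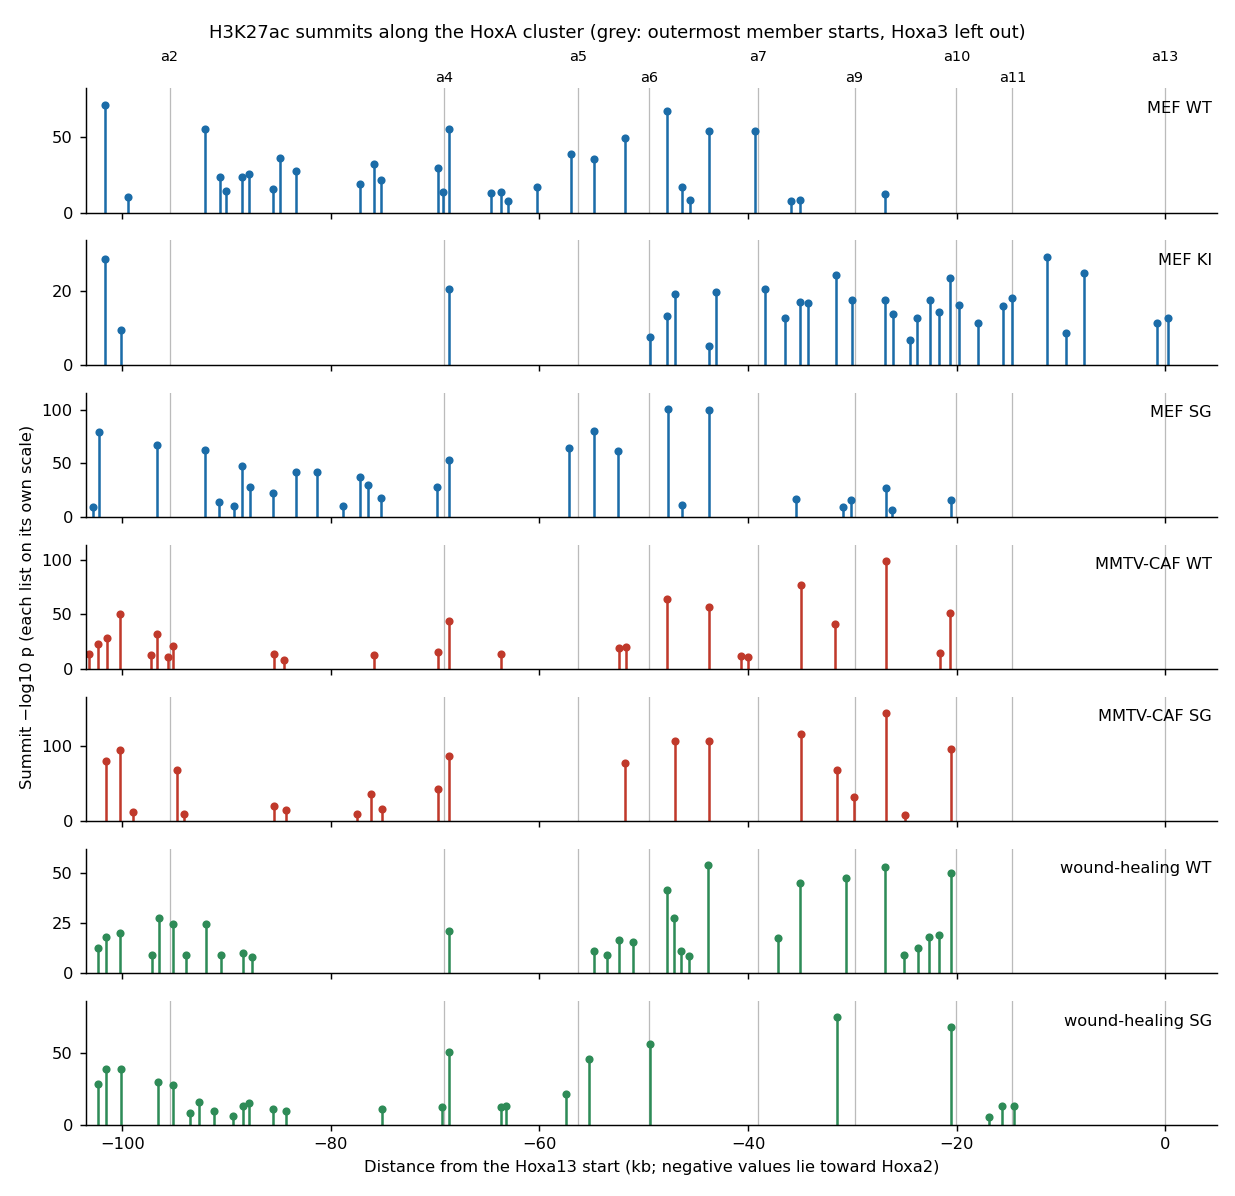
H3K27ac summits in each list by distance in kb from the Hoxa13 start, with their −log10 p as height (each list has its own linear scale) and the outermost member starts in grey (Hoxa3 left out). In KI MEF 21 of 30 summits lie from Hoxa9 to Hoxa13, and in WT MEF 3 of 31 do.

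The strongest summit of the span lay at different members by list. In WT MEF it had −log10 p 71.7 at 52109202, in the Hoxa2 flank, and ranked 1539th of 44918. In SG MEF it was at 52163149, by the far Hoxa3 starts between Hoxa6 and Hoxa7 (−log10 p 101, 1492nd of 43019). In MMTV-CAF it was at Hoxa10, at 52184072 in WT (99.0, 706th of 53873) and 52184102 in SG (144, 51st of 61603). In wound-healing WT it was at Hoxa7 (52167042, 54.2, 992nd of 33465) and in SG at Hoxa9 (52179364, 75.4, 1517th of 43058). In KI MEF it was at 52199513, between Hoxa11 and Hoxa13 (29.4, 1090th of 29325).

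Within 1 kb of a start, 7 of 10 members had an H3K27ac summit in WT MEF (49.0% of all genes), 8 in KI MEF (38.4% of all genes) and 7 in SG MEF (50.9%). The count was 7 in MMTV-CAF WT (49.3% of all genes) and SG (51.5%) and 7 in wound-healing WT (47.9%) and SG (50.1%). Hoxa3, Hoxa4, Hoxa6, Hoxa9 and Hoxa10 had one in all 7 lists, against 35.6% of all genes. The remaining members differed by list. Hoxa2 had one in the 4 MMTV-CAF and wound-healing lists and in no MEF list, and Hoxa5 in WT and SG MEF. Both splits rest on the 1 kb limit. SG MEF had a summit 1184 bp from the Hoxa2 start (−log10 p 66.7). Wound-healing SG had one 1052 bp from the Hoxa5 start (45.8). Within 2 kb the count was 8 in SG MEF and in both wound-healing lists, with no share of all genes computed at that distance. Hoxa7 had one in 6 lists, all but wound-healing SG, Hoxa11 in KI MEF and wound-healing SG, and Hoxa13 in KI MEF.

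The best summit within 1 kb of a Hoxa10 start was above 29.4% of its list in WT MEF. Its −log10 p was 23.5 in KI MEF (above 90.8% of the list) and 26.5 in SG MEF (57.1%). It was 99.0 in MMTV-CAF WT (98.6%), 144 in MMTV-CAF SG (99.9%), 52.9 in wound-healing WT (96.3%) and 68.0 in wound-healing SG (94.6%). At Hoxa9 the same value was 8.20 in WT MEF (9.95%), 24.4 in KI MEF (92.0%), 16.5 in SG MEF (40.7%), 76.9 in MMTV-CAF WT (95.4%), 116 in MMTV-CAF SG (99.4%), 47.8 in wound-healing WT (94.4%) and 75.4 in wound-healing SG (96.5%). At both genes WT MEF ranked lowest within its list and SG MEF next, and KI MEF lay over 90% as the MMTV-CAF and wound-healing lists did.

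Joined within 500 bp, the summits of the 7 lists fell at 68 sites, of which 25 were in 1 list, 10 in 2, 12 in 3, 11 in 4, 4 in 5, 5 in 6 and 1 in 7. The single site of all 7 lists lay at chr6:52142189-52142219, 437 bp upstream of the outermost Hoxa4 start, and is the Hoxa4 sequence printed above. Its −log10 p was 55.6 in WT MEF, 20.6 in KI MEF, 53.1 in SG MEF, 44.1 in MMTV-CAF WT, 85.8 in MMTV-CAF SG, 21.2 in wound-healing WT and 50.9 in wound-healing SG. Of the 5 sites in 6 lists, 3 were absent from wound-healing SG alone: 1 by Hoxa7 (52167042 to 52167113), 1 by Hoxa9 (52175030 to 52175925) and 1 by Hoxa10 (52183983 to 52184102). The outer Hoxa10 site (52190186 to 52190305) was absent from WT MEF and one in the Hoxa2 flank (52109171 to 52109363) from SG MEF, whose nearest summit, at 52108667 with −log10 p 78.8, lay just past the joining distance of 500 bp.

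Stitched within 12.5 kb, the summits of the span formed 1 cluster in WT MEF, SG MEF and MMTV-CAF WT, 2 in wound-healing SG and MMTV-CAF SG, and 3 in KI MEF and wound-healing WT. Ranked by summed −log10 p the best of them was 1st of 18313 in WT MEF, 6th of 13518 in KI MEF, 2nd of 17687 in SG MEF, 39th of 18506 in MMTV-CAF WT, 70th of 19061 in MMTV-CAF SG, 17th of 13901 in wound-healing WT and 37th of 18052 in wound-healing SG. The first of these ranks is why the cluster was chosen. In KI MEF the ranked cluster ran from Hoxa6 to Hoxa13 (chr6:52161504-52211152), in WT MEF from the Hoxa2 flank to Hoxa10 (chr6:52109202-52183989). The ranks depend on the stitching distance, as given in the closing part.

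Set side by side as WT and deleted, the smallest share of WT summits was found again in KI MEF. Of 31 WT summits of the span, 6 had a KI MEF summit within 500 bp (19.4%, Wilson 95% interval 9.19% to 36.3%), where 44.3% of all WT summits and 48.5% of WT summits matched to these by decile of −log10 p did. SG MEF had one for 18 of 31 (58.1%, 40.8% to 73.6%; 68.2% of all and 71.7% of those matched by decile), and MMTV-CAF SG for 14 of 25 (56.0%, 37.1% to 73.3%; 63.9% and 68.7%). Wound-healing SG had one for 11 of 30 (36.7%, 21.9% to 54.5%; 67.7% and 68.9%). The MEF values are a description, since the WT MEF list chose the cluster. Intervals cover counting error over summits, which are not independent within a cluster, and not the difference between cultures. The shares rose with the matching distance: within 1 kb they were 35.5% in KI MEF, 50.0% in wound-healing SG, 76.0% in MMTV-CAF SG and 80.6% in SG MEF. In the reverse direction 6 of 30 KI MEF summits had a WT summit within 500 bp, against 69.5% of all KI summits.

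Wound-healing SG kept 8 of 11 WT summits over Hoxa2 to Hoxa3, 2 of 10 over Hoxa4 to Hoxa7 and 1 of 9 over Hoxa9 to Hoxa10. Its largest gap, 17.9 kb from 52161463 to 52179364, lay wholly inside its 32.7 kb H3K4me3 region, and both summits that bound the gap were strong (−log10 p 56.5 and 75.4). The summit positions alone cannot show whether that stretch was acetylated, and the part of peak width in this count was not tested.

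The H3K4me3 bases of WT cells were largely kept in the SG lists. SG MEF covered 85.1% of the WT bases of the span (84.8% genome-wide), MMTV-CAF SG 93.7% (79.8%) and wound-healing SG 98.7% (93.1%). KI MEF covered 37.8%, against 65.4% genome-wide. By stretch, KI MEF covered 11.1% of WT bases over Hoxa2 to Hoxa3, 33.5% over Hoxa4 to Hoxa7, 99.4% over Hoxa9 to Hoxa10 and 100% over Hoxa11 to Hoxa13. The shares were thus low over both stretches from Hoxa2 to Hoxa7, and 19.3 kb was marked in KI that was not in WT. In wound-healing SG 11.6 kb was marked that WT lacked and 0.596 kb was lost, in MMTV-CAF SG 5.92 kb was marked anew and 2.72 kb lost, and in SG MEF 1.81 kb anew and 7.40 kb lost.

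Counted by member, H3K4me3 at a start was in WT MEF and absent from KI for 2 of 10 members, Hoxa2 and Hoxa5 (22.6% of all genes marked in WT), and absent from SG for 2 of 10, Hoxa5 and Hoxa11 (4.02%). It was absent from SG for 0 of 7 in MMTV-CAF (2.66% of all marked genes) and 0 of 9 in wound-healing fibroblasts (2.41%), and Hoxa11, the 1 member unmarked in wound-healing WT, was marked in SG (4.14% of all genes unmarked in WT). None of the 3 members unmarked in MMTV-CAF WT was marked in SG (4.07%). H3K27ac within 1 kb was lost in KI for 1 of 7 members, Hoxa5 (23.1% of all genes with a WT summit), and gained for 2 of the 3 members without it in WT, Hoxa11 and Hoxa13 (1.43% of all genes without it in WT). It was lost in SG MEF for 0 of 7 (1.93%), in MMTV-CAF SG for 0 of 7 (2.69%) and in wound-healing SG for 1 of 7, Hoxa7 (2.76%). Hoxa7 lies in the wound-healing SG stretch without summits, where positions cannot show acetylation. H3K27ac was gained in SG MEF for 0 of 3 (5.43% of all genes), in MMTV-CAF SG for 0 of 3 (6.96%) and in wound-healing SG for 1 of 3, Hoxa11 (6.79%). For KI MEF the counts of lost members were near or under the background shares.

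The PRRX1 list of wound-healing fibroblasts had 6 summits in the span, that of MMTV-CAF 5 and that of MEF 0. That is 55.3 and 46.1 per Mb for wound-healing fibroblasts and MMTV-CAF, against 2.15 and 3.01 per Mb over the genome. At each list's genome density the span would hold 0.233, 0.327 and 0.125 in the same order, with MEF last. In MEF the nearest summit was 517 to 580 kb from these sites. The MEF list was also the shortest, and with 0.125 summits expected at its genome density, a count of 0 does not set the span apart. Of all MEF PRRX1 summits, 7.02% lay in H3K4me3 regions and 20.5% within 500 bp of an H3K27ac summit. Both shares were the lowest of the 3 PRRX1 lists, so the MEF list differed across the genome and not only at HoxA. List quality was not tested.

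In MMTV-CAF and wound-healing fibroblasts PRRX1 summits lay at the Hoxa2 gene and from Hoxa7 to Hoxa9, and none was within 10 kb of Hoxa4, Hoxa5, Hoxa11 or Hoxa13. The Hoxa2 intron summit was at 52113893 in MMTV-CAF, with −log10 p 8.84, and the wound-healing one at 52113888 (7.30), 5 bp apart. The Hoxa7 intron summit was at 52166912 (7.82) and 52166856 (22.6, ranked 116th of 5698). The summits in an untranslated exon stretch of Hoxa9 were at 52176411 (7.12) and 52176299 (9.36), 112 bp apart, and those in the Hoxa9 intron at 52177751 (10.8) and 52177747 (6.87), 4 bp apart. The 2 cell types thus shared 4 positions to within 112 bp. MMTV-CAF had 1 more upstream of Hoxa7 (52172067, 4.20), and wound-healing fibroblasts had 1 in a coding exon of Hoxa7 (52167402, 8.31) and 1 upstream of it (52173024, 6.32). The summit with −log10 p 4.20 is below 5, the lowest value in the H3K27ac lists.

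All 11 PRRX1 summits were inside H3K4me3 regions of the same cells, against 44.7% and 28.2% of all summits of the MMTV-CAF and wound-healing lists. An H3K27ac summit lay within 500 bp of 3 of 5 in MMTV-CAF (45.4% of the whole list) and 4 of 6 in wound-healing fibroblasts (33.2%). TAATTA occurred within 100 bp of 3 of 5 and 3 of 6 (35.4% and 41.9% of the lists, 7.41% of 201 bp windows of chromosome 6 and 4.08% of those of the HoxA span), in each case in the windows printed above, 4 to 32 bp from the summit. At the other summits there was none. TAAT or ATTA was within 100 bp of all 11, as it was of 75.7% of chromosome 6 windows and 54.7% of HoxA span windows. These summits are few, and an absent motif says only that its letters are not in the window.

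By gene, a PRRX1 summit lay within 10 kb of a start of 0 of 10 members in MEF (3.60% of all genes), 6 of 10 in MMTV-CAF (16.3%) and 6 of 10 in wound-healing fibroblasts (12.2%). The 6 were Hoxa2, Hoxa3, Hoxa6, Hoxa7, Hoxa9 and Hoxa10 in both, and neighbouring members share the same few summits. H3K4me3 at these 6 genes was still listed in SG cells of both types.

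Among the other Hox clusters, H3K4me3 lay over a start of 6 of 10 HoxB, 7 of 9 HoxC and 4 of 9 HoxD genes in WT MEF. In KI MEF it was 1 of 10 HoxB, 0 of 9 HoxC and 5 of 9 HoxD, beside 8 of 10 HoxA members. In SG MEF it was 7, 3 and 3. MMTV-CAF had 6, 8 and 3 in WT and 7, 9 and 4 in SG, and wound-healing fibroblasts 5, 7 and 6 in WT and 8, 8 and 5 in SG. From WT to KI MEF the count of marked genes was thus lower by 5 at HoxB, by 7 at HoxC and by 2 at HoxA, and higher by 1 at HoxD, while the share over all genes went from 53.2% to 41.6%. Of the Hox cofactor genes of the Meis, Pbx and Pknox families, 7 of 9 were marked in each MEF list, 9 in both MMTV-CAF lists, 8 in wound-healing WT and 9 in SG.

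**Figure D4:**
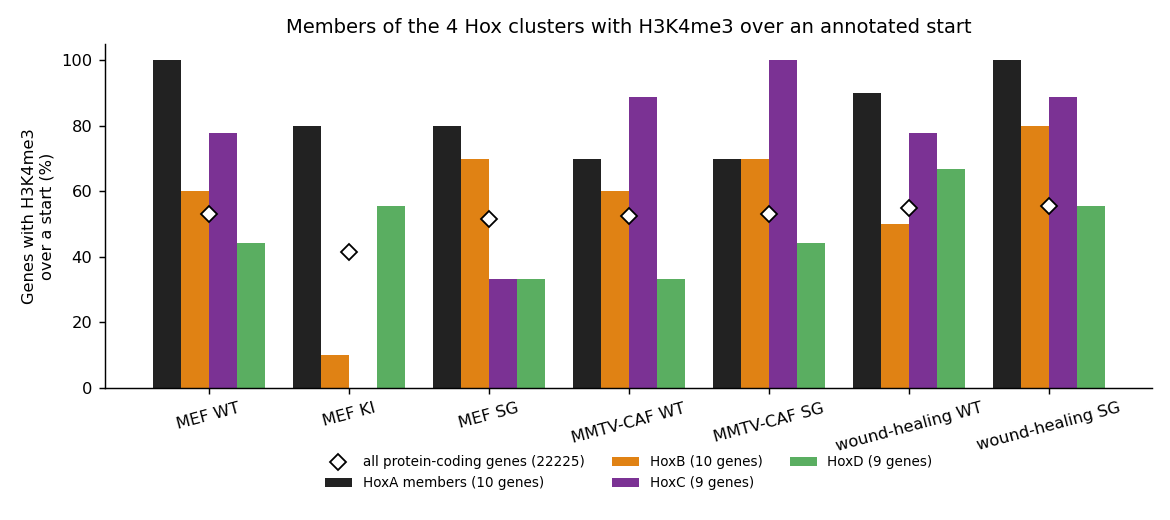
Share of genes (%) of each Hox cluster with an H3K4me3 region over an annotated start, by list, with diamonds for all protein-coding genes. In KI MEF the HoxA bar is at 80.0%, HoxB at 10.0% and HoxC at 0.00%.

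By H3K4me3 length within 5 kb of the outermost start, averaged over the members, the lists ran from 4047 bp in KI MEF to 6479 bp in wound-healing SG, with 4871 in WT MEF, 4467 in SG MEF, 4563 in MMTV-CAF WT, 5009 in its SG counterpart and 5413 in wound-healing WT. The genes outside the span whose own length followed this order most closely were Mcm6 (Pearson r 0.985 over 7 lists), Zfp2 (0.984), Magel2 (0.977), Vash1 (0.977) and Tle1 (0.976), out of 14288 genes with any variation. With 7 lists that share cell type and list size, 219 genes exceeded 0.9, so these are given as a description. The mean hides opposite members. In KI MEF the length was 0 bp at Hoxa2 and 301 bp at Hoxa5, against 7513 and 7663 in WT MEF, and 6662 bp at Hoxa11 and 5280 bp at Hoxa13, against 655 and 867.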

How the data were processed

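Lists existed for 17 of the 24 samples, and the 7 input samples were left out. Before deposit, the authors trimmed the reads (Trimmomatic), mapped them to mm9 (Bowtie), dropped PCR duplicates (Picard) and called peaks over input (MACS2). For H3K27ac and PRRX1 the deposited values are a summit position and its −log10 p. For H3K4me3 the deposited values are the limits of each broad region, its fold (a ratio) over input, −log10 p, −log10 q and a display score, of which the score was not used. PRRX1 ChIP was done in duplicate according to the methods, and how the duplicates were combined is not stated.

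The members and gene lists were chosen with earlier results of these data known. The division into 4 stretches, at the first base of Hoxa4 and of Hoxa9 and at the last of Hoxa10, was made after seeing the files. All 10 members are reported in every list, and Skap2, Evx1, Prrx1, the noncoding genes inside and the 5 genes of highest r were named by rule. 1 further Hoxa gene at the Hoxa2 end is not reported here. A member counted as marked by an H3K4me3 region over a start, or an H3K27ac summit within 1 kb. No interval lay beyond a chromosome end (0 of all lists). Interval code was tested on simulated data. Wilson intervals cover counting error only. Alternatives were −log10 p of 10 (5 for PRRX1), lists of equal size, other flanks, distances and stitching. Tools were samtools 1.23.1, pysam 0.24.0, matplotlib 3.10.9 for the plots, and SciPy 1.17.1, pandas 2.3.3 and NumPy 2.4.6 under Python 3.11.15.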

Additional observations from a re-analysis of the deposited data

Results flagged for a closer look

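In several measures the WT and deleted lists differed in opposite directions between fibroblast types. Each type has 1 list per genotype, so these differences between types were not tested. For H3K4me3 over the span the difference, deleted minus WT, was -11.5 kb in KI MEF and -5.58 kb in SG MEF, and 3.21 kb in MMTV-CAF SG, with 11.0 kb in wound-healing SG. Over Hoxa2 to Hoxa3 it was -17.0, -3.20, 1.14 and 3.42 kb in the same order, and over Hoxa4 to Hoxa7 -12.5, -2.04, 0.578 and 3.74 kb. List size moved the same way, since the KI and SG lists of MEF were shorter than WT and the other SG lists longer. With every list cut to the smallest, H3K4me3 over the span was 42.8 kb in WT MEF, 38.1 kb in KI MEF and 36.5 kb in SG MEF, 39.9 kb in MMTV-CAF WT and 44.6 kb in its SG counterpart, and 41.0 kb in wound-healing WT and 54.5 kb in SG. The directions were those at full size, and the KI MEF difference from WT was much smaller. The separate stretches were not recomputed at equal size. For H3K27ac summits from Hoxa9 to Hoxa10 the difference was 9 in KI MEF, 3 in SG MEF, -7 in wound-healing SG and 1 in MMTV-CAF SG. From Hoxa2 to Hoxa3 it was 3 in wound-healing SG and -1 in MMTV-CAF SG, while KI and SG of MEF had no common direction there.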

How the results depend on the processing

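Of 186 alternatives over 60 results, 160 kept their value within the spread set for them and 26 moved; with 1 list a group, no paired or leave-one-out fit could be made. No paired analysis was possible because the results come from no test. The rank of the H3K27ac cluster depended most on its definition. Stitched within 5 kb it was 4 in WT MEF, 2 in KI MEF, 29 in SG MEF, 452 in MMTV-CAF WT, 43 in wound-healing WT and 75 in wound-healing SG, and ranked by number of summits it was 2 in WT MEF, 5 in SG MEF, 564 in MMTV-CAF SG, 49 in wound-healing WT and 23 in wound-healing SG. With −log10 p of at least 10, H3K4me3 in the span was 19.8 kb in KI MEF and 27.4 kb in SG MEF, 5 members were marked in SG MEF, KI MEF covered 19.7% of WT bases, and 1 PRRX1 summit was left in each of the wound-healing and MMTV-CAF lists. With lists cut to the smallest, MMTV-CAF WT had 14 H3K27ac summits and 3 PRRX1 summits. Within 1 kb, 80.6% of WT summits were present in SG MEF, 76.0% in MMTV-CAF SG, 35.5% in KI MEF and 50.0% in wound-healing SG. The last 2 stayed inside the Wilson interval of the value at 500 bp, the spread used for these shares, although KI MEF moved by over 1.5 times. The share from Hoxa9 to Hoxa13 and its alternatives were added after seeing the data. For H3K4me3 it was 8.36% in WT MEF and 0.00% in SG MEF at −log10 p of 10, and 10.0% in SG MEF at equal list size. For summits in WT MEF it was 3.70% and 0.00%. In KI MEF it stayed between 70.0% and 76.0%. The cause was not tested. Unknown depth limits every absence from a list.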
